A study of Mus musculus with 4 samples.

Results

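Nuclear RNA over 3 loci that encode subunits of cohesin and condensin was compared between mouse embryonic stem cells (ESC) and neural progenitor cells (NPC) made from them. The 3 loci are among the 39 blocks of a custom tiling array, and each is read by the non-control probes that lie in chr15:51780001-51830000 (called the Rad21 region), chr19:53640001-53740000 (the Smc3 region) or chr15:89175001-89215000 (the Ncaph2 region), on mm9. These probes number 1362 of 48316: 455 over Rad21, 524 over Smc3 and 383 over Ncaph2. Each region is an isolated block of the array, and no probe of its block lies outside the bounds.

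Both groups carry the same genotype, that of the 46c line, an ESC line with a green fluorescent reporter in the Sox1 gene that marks neural commitment. ESC were kept in GMEM with supplements, and NPC were obtained with the N2B27 protocol; there were 2 arrays of each, read in 1 colour. RNA came from chromatin of nuclei prepared without RNase, was amplified as whole transcriptome and labelled with Cy3. The labels do not say whether the 2 samples of a group were separate cultures, so every p-value here rests on a spread between samples that may be technical alone. NPC is a mixed product of differentiation, and in bulk RNA fewer cells of a type and less RNA per cell cannot be told apart. The names of the 3 regions come with their bounds; no mm9 annotation was used to name the other blocks, so the cell types were not checked against markers here and other cohesin and condensin genes were not looked up.

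Cohesin is a ring-shaped complex that holds sister chromatids together until anaphase and that, in interphase, extrudes loops of chromatin between sites bound by CTCF. Its core holds the ATPases Smc1 and Smc3 and the kleisin Rad21, which closes the ring and is cut by separase. Condensin complexes compact chromosomes for mitosis, and Ncaph2 is the kleisin of condensin II, the form that stays in the nucleus through interphase. All are widely expressed in dividing cells. In the RefSeq gene table for GRCm38, Rad21 overlaps Gm52217 and lies between Utp23 and Aard, Smc3 overlaps no other gene and lies between Dusp5 and Rbm20, and Ncaph2 overlaps Sco2 and Tymp and lies between Lmf2 and Odf3b. The array reads both strands alike, so RNA of such neighbours inside a region adds to its signal. Gene bounds, exons and start sites were not placed among the mm9 probes.

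The start regions of Smc3 and Ncaph2 are shown because the levels of their loci are compared below; they come from RefSeq on GRCm38.p6 (250 bases before to 50 after the start site), where 2 of the 3 genes had an entry. Capitals mark matches on either strand to a short list of promoter motifs. Smc3 lies at chr19:53600146-53600445 and Ncaph2 at chr15:89355469-89355768, both on the + strand.
Smc3: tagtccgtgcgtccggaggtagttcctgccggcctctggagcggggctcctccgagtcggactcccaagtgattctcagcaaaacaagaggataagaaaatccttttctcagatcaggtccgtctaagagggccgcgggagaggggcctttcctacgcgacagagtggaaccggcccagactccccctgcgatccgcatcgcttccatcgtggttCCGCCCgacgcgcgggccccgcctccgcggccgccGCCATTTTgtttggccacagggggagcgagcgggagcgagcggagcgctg
Ncaph2: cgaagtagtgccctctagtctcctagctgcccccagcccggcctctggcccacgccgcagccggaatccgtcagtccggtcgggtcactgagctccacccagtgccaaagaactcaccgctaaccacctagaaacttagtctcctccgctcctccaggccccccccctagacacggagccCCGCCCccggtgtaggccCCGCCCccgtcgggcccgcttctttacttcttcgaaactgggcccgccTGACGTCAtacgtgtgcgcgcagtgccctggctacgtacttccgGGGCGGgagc

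Both windows are rich in CG, with 32 CG dinucleotides for Smc3 and 26 for Ncaph2 against a median of 7 over 32851 RefSeq promoters of the same length. The letters searched were GGGCGG (the GC box), CCAAT, TGACGTCA (the cyclic AMP response element), GCCATNTT (known from YY1), TATAAA and TTTGGCGC (known from E2F). The GC box was found once for Smc3 and 3 times for Ncaph2, and 35.7% of the promoters hold it. Smc3 also holds GCCATNTT, from base 0 to 7 when the first base after the 250 is counted as 0, and 6.05% of promoters hold that. Ncaph2 holds TGACGTCA from base -4 to 3, found in 1.79% of promoters. No matched motif overlaps another, and the other 3 strings are not in these windows. These are matches of letters, not measured binding.

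The first comparison asked how the level of each locus differs between ESC and NPC. The Rad21 and Smc3 regions fell in NPC and the Ncaph2 region did not pass the test. Levels are means over the probes of a region, in log2 units relative to the array's scaling percentile, so that 0 is a bright probe and most levels are below 0. Changes are NPC minus ESC.

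The Rad21 region stood at -1.69 and -1.67 in ESC 1 and ESC 2 and at -2.28 and -2.60 in NPC 1 and NPC 2. Both ESC arrays were above both NPC arrays, and the ESC pair lay closer together than the NPC pair. The ESC mean was -1.68 ± 0.011 and the NPC mean -2.44 ± 0.23 (SD, n = 2). The change was -0.76 (SE 0.13, limma with Benjamini-Hochberg adjustment over 39 blocks, adjusted p = 0.0103), a 1.70-fold higher level in ESC.

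The Smc3 region stood at -2.40 and -2.44 in ESC 1 and ESC 2 and at -2.80 and -3.18 in NPC 1 and NPC 2. As for Rad21, the groups did not overlap and NPC 2 was the lowest array. The ESC mean was -2.42 ± 0.029 and the NPC mean -2.99 ± 0.27 (SD, n = 2), a change of -0.57 (SE 0.15, limma adjusted p = 0.0303) and a 1.48-fold higher level in ESC.

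The Ncaph2 region stood at -1.02 and -0.81 in ESC 1 and ESC 2 and at -1.04 and -1.06 in NPC 1 and NPC 2. Here ESC 1 was nearly level with both NPC arrays and ESC 2 was above the other three. The means were -0.91 ± 0.15 and -1.05 ± 0.013 (SD, n = 2). The difference of -0.13 (SE 0.098, limma adjusted p = 0.295) had a 95% interval from -0.40 to 0.14.

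**Figure D1:**
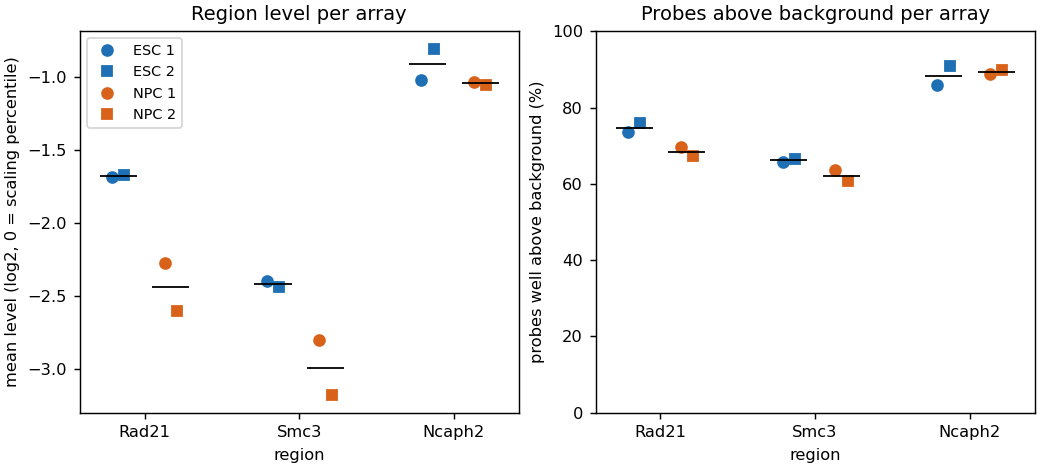
Mean log2 level (left, 0 is the array's scaling percentile) and share of probes well above background in percent (right) for the Rad21, Smc3 and Ncaph2 regions. Each point is an array (blue ESC, orange NPC; circle replicate 1, square replicate 2) and each bar a group mean; Rad21 goes from -1.68 to -2.44 and Smc3 from -2.42 to -2.99, while Ncaph2 lies at -0.91 and -1.05.

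A fall was the common outcome on this array: 51.3% of the 39 blocks were called lower in NPC and 10.3% higher. From the lowest change upward, Rad21 ranked 8, Smc3 ranked 15 and Ncaph2 ranked 25 of 39. The median change of all 964 windows of 5 kb was -0.34. Relative to that median, Rad21 changed by -0.42 and Smc3 by -0.23, and Ncaph2 stood at 0.21. The median of all windows shifted to between -0.72 and 0.087 under other scalings, so the sign of a change near it depends on the scaling. Rad21 kept its call under each scaling, from -1.14 with the percentile over all probes to -0.33 with the medians of control spots named SRN (limma adjusted p = 0.0369). Smc3 lost its call with those medians (-0.14, adjusted p = 0.352), with the median change per SRN spot (-0.28, adjusted p = 0.148) and with the percentile taken without chromosome 12 (-0.36, adjusted p = 0.101). Ncaph2 turned to 0.30, 0.16 and 0.082 under these same scalings, and was called lower with normexp (-0.17, adjusted p = 0.0427), with the percentile over all probes (-0.51, adjusted p = 0.0142) and with the authors' values (-0.39, adjusted p = 0.0265). Over all 13 sets of values run, the change relative to the median of all windows, chromosome 12 included, was -0.50 to -0.24 for Rad21. It was -0.30 to -0.10 for Smc3 and -0.038 to 0.24 for Ncaph2. A scaling by one number per array cannot move these values, so sets that differ only in such a scaling give the same ones.

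The calls of Rad21 and Smc3 also needed both ESC arrays. Without ESC 1 their changes were -0.77 and -0.55 (limma adjusted p = 0.0990 and 0.180), and without ESC 2 they were -0.75 and -0.59 (adjusted p = 0.117 and 0.178). An exact permutation test of 2 against 2 arrays gives p = 0.33 at the least.

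The second comparison set the regions against each other inside each array, where a scaling by one number per array cancels. The Ncaph2 level minus the Rad21 level was 0.67 and 0.86 in ESC 1 and ESC 2 and 1.24 and 1.55 in NPC 1 and NPC 2. Both NPC arrays were above both ESC arrays. The 2 loci thus changed unequally, by 0.63 (SE 0.17, limma over 741 pairs of blocks, adjusted p = 0.0199; 31% and 26.5% of pairs were called each way). This call was lost with the authors' values (0.32, adjusted p = 0.186), with the median over probes (0.55, adjusted p = 0.101), when restricted to probes with signal above background on all arrays (0.40, adjusted p = 0.0800), and without ESC 1 (0.53, adjusted p = 0.210) or ESC 2 (0.73, adjusted p = 0.123).

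For the 2 cohesin genes, Rad21 minus Smc3 was 0.71 and 0.77 in the ESC arrays and 0.53 and 0.58 in the NPC arrays. The groups did not overlap, but the difference of -0.19 (SE 0.14, limma adjusted p = 0.259) did not pass, with a 95% interval from -0.52 to 0.14. Ncaph2 minus Smc3 was 1.38 and 1.63 in ESC. In NPC it was 1.76 and 2.13, which gives a difference of 0.44 (SE 0.18, limma adjusted p = 0.0816) with an interval from -0.0056 to 0.88. It was called only without NPC 1 (0.62, limma adjusted p = 0.00429). Against the other 38 blocks in the same fit, the change of Rad21 was lower than that of 18 and higher than that of 3. Smc3 was lower than 11 and higher than 5, and Ncaph2 was lower than 4 and higher than 13. The 38 blocks include the other loci of this report. Over all 741 pairs, 31% were called one way and 26.5% the other.

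The share of probes well above background needs no scaling between arrays, but it depends on the limit set for each array. Over Rad21 it was 73.6% and 75.8% in ESC 1 and ESC 2 and 69.7% and 67.3% in NPC 1 and NPC 2. Over Smc3 the ESC arrays gave 65.8% and 66.4% and the NPC arrays 63.5% and 60.7%. Over Ncaph2 the groups overlapped, at 85.9% and 90.9% against 88.8% and 89.8%. The group means moved by -6.26, -4.01 and 0.91 percentage points, while the other 46954 probes of the array went from 42.6% to 53.7%. Most of that rise lay on chromosome 12: the 37118 other probes outside it went from 47.3% to 49.0%, with overlapping groups. No test of these shares was made. Most member probes carried signal in both groups: 267 of 455 for Rad21, 263 of 524 for Smc3 and 300 of 383 for Ncaph2 were well above background on all 4 arrays. Of the negative control spots, 2.27% and 2.42% were above that limit on ESC 1 and ESC 2, and 1.67% and 1.36% on NPC 1 and NPC 2. This difference has the same direction as the shares of Rad21 and Smc3, and its part in them was not tested.

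The third comparison followed the signal along each locus in windows of 5 kb. Of 28 windows tested in the 3 regions, 9 were called lower in NPC and 0 higher, that is, 32.1% lower against 29.3% of all 964 windows (22% were called higher). The shares of all windows include the rising block on chromosome 12. Rad21 had 5 lower of 9, Smc3 had 4 of 12 and Ncaph2 had 0 of 7, for which 2 were lower and 0 higher at an unadjusted p under 0.05 in limma. The share of all windows at that unadjusted limit was not counted, so nothing is read from it. The pooled share is near the background, so it says nothing particular about the 3 loci together. The 9 lower calls were all lost when either ESC array was left out, and grew in number without NPC 1. Calls over the whole array were not counted for those fits. Taking the percentile over all probes gave 25, beside 622 of all 964 windows. Taking it without chromosome 12 gave 2, beside 65 of all 964.

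**Figure D2:**
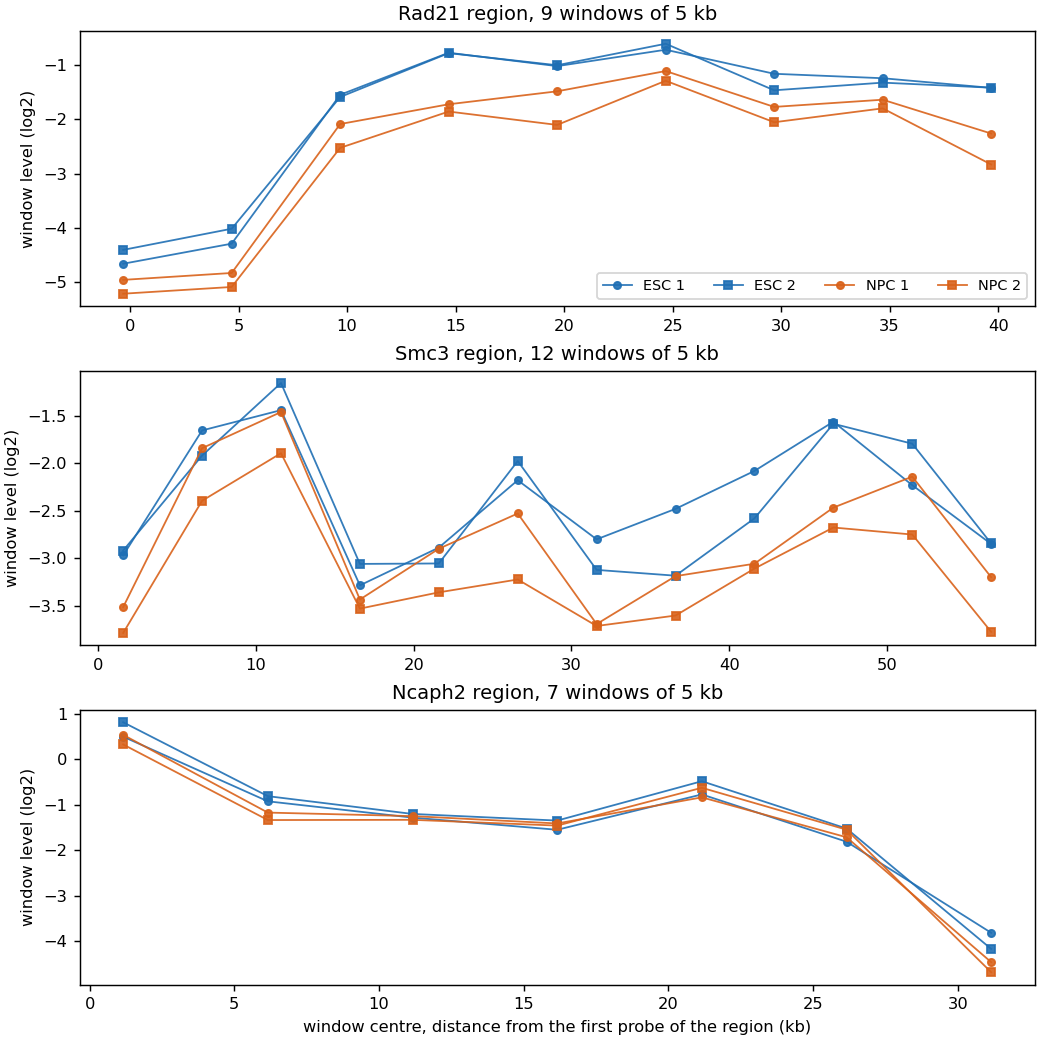
Mean log2 level of each 5 kb window against the distance of its centre from the first probe of the region (kb), for each array (blue ESC, orange NPC; circle replicate 1, square replicate 2). In the Rad21 region every window has both ESC arrays above both NPC arrays, and in the Ncaph2 region the groups overlap in 5 of 7 windows. The share of such windows over the whole array was not counted.

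In the Rad21 region the groups were apart, ESC above NPC, in all 9 windows. How often this held over the whole array was not counted, and the median change of all windows was itself -0.34. The first 2 windows, which start at 51780001 and 51785001, were dim, with 21.4% and 40.2% of probes above background in ESC and 21.4% and 29.5% in NPC. From 51790001 to the end of the region the share was 76.5% to 89.4% in ESC. The window with the highest level was chr15:51805001-51810000, at -0.72 and -0.61 in ESC and -1.11 and -1.29 in NPC. Its change was -0.54 (SE 0.14, limma adjusted p = 0.0379).

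The largest fall of the region was in its last window, chr15:51820001-51825000, which stood at -1.42 and -1.42 in ESC and -2.26 and -2.83 in NPC. Its change was -1.13 (SE 0.23, limma adjusted p = 0.0209), and it was called in 12 of the 13 sets of values. The window at chr15:51795001-51800000 stood at -0.78 and -0.78 in ESC and -1.73 and -1.86 in NPC. It changed by -1.01 (SE 0.13, adjusted p = 0.00863), with a 2.02-fold higher level in ESC. It was called lower in all 13 sets, with changes from -1.39 to -0.56. The window between those at 51795001 and 51805001 changed by -0.78 and did not pass (SE 0.24, adjusted p = 0.0515), with NPC arrays at -1.49 and -2.11.

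In the Smc3 region all 12 windows had at least 50% of probes above background in one group or the other, and the highest windows lay near both ends. The highest window was chr19:53680001-53685000, at -1.44 and -1.16 in ESC and -1.46 and -1.89 in NPC. Its arrays were nearly continuous across the groups and its difference of -0.38 did not pass (SE 0.21, limma adjusted p = 0.179). The next, at 53675001, had overlapping groups and a difference of -0.33 (SE 0.24, adjusted p = 0.271).

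The third high window, chr19:53715001-53720000, behaved otherwise: -1.56 and -1.59 in ESC against -2.47 and -2.68 in NPC, with a change of -0.996 (SE 0.14, limma adjusted p = 0.00989). It was called lower in all 13 sets of values, from -1.38 to -0.49. The other lower windows start at 53670001 (-0.70), 53700001 (-0.74) and 53710001 (-0.75). The 4 windows between 53675001 and 53695000 ranged from -0.38 to -0.16 and none was called, while the 5 from 53695001 to 53720000 ranged from -0.996 to -0.56. This grouping was made after the values were seen and was not tested.

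In the Ncaph2 region signal was high from the first window on. The highest window, chr15:89180001-89185000, stood at 0.50 and 0.82 in ESC and 0.54 and 0.33 in NPC, with 97.5% and 94.9% of its probes above background. Its groups overlapped (-0.22, SE 0.18, limma adjusted p = 0.309). The next window, at 89185001, had ESC at -0.92 and -0.81 and NPC at -1.17 and -1.33, and its -0.39 did not pass (SE 0.14, adjusted p = 0.0742).

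The 4 windows from 89190001 to 89210000, which follow, lay between -0.10 and 0.036 and none passed. The groups overlapped in each of them. The arrays lay closest together at 89190001, with -1.28, -1.20, -1.25 and -1.33 in ESC 1, ESC 2, NPC 1 and NPC 2, and farthest apart at 89200001, with -0.77, -0.48, -0.83 and -0.62. The last window, from 89210001, holds only 7 probes, of which 28.6% in ESC and 42.9% in NPC were above background. It had the lowest value of the region, -0.58 (SE 0.19, limma adjusted p = 0.0559).

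**Figure D3:**
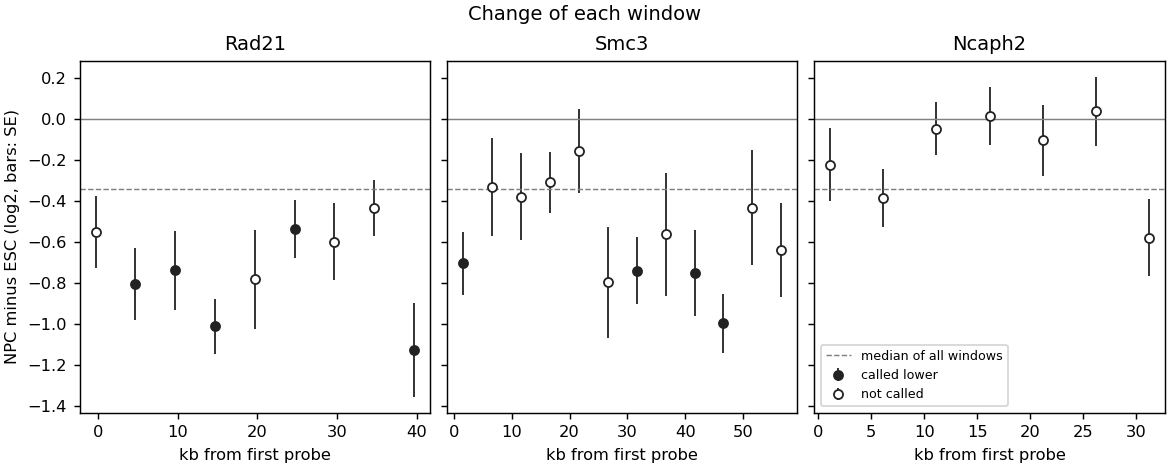
NPC minus ESC (log2) of each 5 kb window with its standard error, by distance of the window centre from the first probe (kb); filled points were called lower (limma, adjusted p under 0.05), open points were not called, and the dashed line is the median of all windows, -0.34. All 9 Rad21 windows lie below that line, and 6 of the 7 Ncaph2 windows lie between -0.39 and 0.036.

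Single probes, 60 bases long and mostly laid end to end, describe the spread of changes within a locus. Of the Rad21 probes tested, 351 of 447 (78.5%) had a value below 0, of the Smc3 probes 389 of 521 (74.7%) and of the Ncaph2 probes 204 of 376 (54.3%), against 58.6% of all 47900 probes tested. These shares include probes at the lowest level of every array, which count as -0.39 whatever their RNA: 24 of Rad21, 38 of Smc3, 3 of Ncaph2 and 5997 of all. The share of all probes also includes the rising block on chromosome 12. With only probes that every array read well above background, 74.6%, 69.6% and 54.9% were below 0 for the 3 loci, against 61.0% of all such probes. The median change was -0.49, -0.41 and -0.071 for the 3 loci and -0.25 for all probes. The middle 50% of the Rad21 probes lay between -1.15 and -0.15. Among the probes well above background the medians were -0.40, -0.31 and -0.082, and -0.19 for all such probes.

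Dim probes bear on these values, since the lowest level an array can give differed: -5.77 and -5.88 in ESC 1 and ESC 2 and -6.07 and -6.36 in NPC 1 and NPC 2. At most 19.3% of Rad21 probes, 21.6% of Smc3 probes and 3.13% of Ncaph2 probes were at that floor on any array. With the 4 arrays raised to one common floor, the changes of the regions were -0.68, -0.48 and -0.12, and both calls held (limma adjusted p = 0.000990 for Rad21 and 0.00741 for Smc3). With only probes above background on all arrays, the changes shrank further, to -0.47, -0.34 and -0.073. Both calls held there too (limma adjusted p = 0.0135 for Rad21 and 0.0438 for Smc3). With the probes of each locus split into 4 equal bins by their mean level, the median changes of Rad21 from the dimmest bin to the brightest were -0.47, -0.67, -0.54 and -0.38. For Smc3 they were -0.39, -0.52, -0.34 and -0.40, and for Ncaph2 -0.029, -0.14, -0.13 and 0.033. No direction is read from the dimmest bins of Rad21 and Smc3: none of their probes was above background on all arrays, and the dimmest bin of all tested probes, split likewise, also had a median of -0.39, with 83.8% below 0. In the brightest bins, where 99.1% of Rad21 and 99.2% of Smc3 probes were above background on all arrays, the medians of -0.38 and -0.40 stood beside -0.16 for the brightest bin of all tested probes. These bins were not matched in level: their median levels were 0.78, -0.026 and -0.84. In that bin of all tested probes, 92.5% were above background on all arrays.

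The 10 brightest probes of each locus are given as values, with no test between loci. By their mean over all arrays, those of Rad21 had 8 of 10 values below 0, with a median of -0.15 and a range from -1.27 to 0.26. Those of Smc3 had 9 of 10 below 0 (median -0.75, from -2.22 to 0.10), and those of Ncaph2 had 3 of 10 (median 0.20, from -1.27 to 0.37), so the ranges overlapped widely. None of these 30 was called by itself (smallest limma adjusted p = 0.112).

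**Figure D4:**
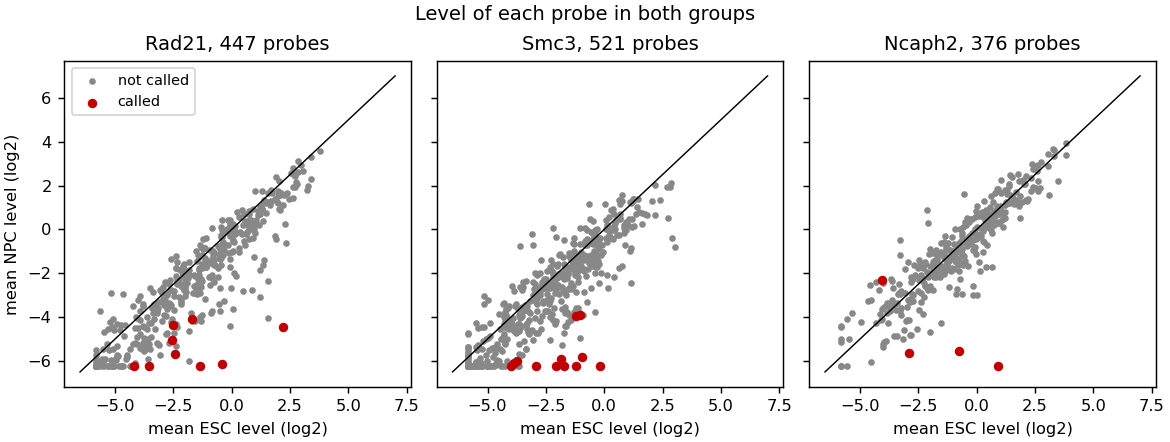
Mean log2 level in NPC against that in ESC for each tested probe of the Rad21 (447), Smc3 (521) and Ncaph2 (376) regions; red points were called (limma, adjusted p under 0.05) and the line marks equal levels. The cloud lies below the line for Rad21 and Smc3 and along it for Ncaph2, and most red points lie at the bottom, where NPC signal was not above background.

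The limma fit of single probes called 9 lower and 0 higher for Rad21, 12 and 0 for Smc3 and 3 and 1 for Ncaph2. Lower calls made up 1.58% of all probes tested, so the member share of 1.79% lower is near the background. Higher calls made up 10.7% of all probes and 0.0744% of the member probes. The share of all probes includes the block on chromosome 12, with 9836 probes and a change of 2.02. Calls outside chromosome 12 were not counted, so no lack of rises is read from the member share. Of the 24 falls, 22 (8, 11 and 3) were at probes not above background on either NPC array. Without adjustment, p under 0.05 gave 57 lower and 5 higher of 447 for Rad21, 52 and 9 of 521 for Smc3, and 13 and 14 of 376 for Ncaph2. Over all 47900 probes tested it gave 3314 lower and 8113 higher. The 24 lower calls grew in number when either NPC array was left out, and became 0 among probes above background on all arrays. Calls over the whole array were not counted under these settings, so the shifts are not read as particular to these loci.

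Some of these falls were isolated. The probe at chr15:89187666-89187725 of the Ncaph2 region read 170.3 and 579.6 units of intensity in ESC 1 and ESC 2 and 2.79 and 2.19 in NPC 1 and NPC 2, the floor of those arrays. Its level was at least 28.2-fold higher in ESC (limma adjusted p = 0.0106), a bound taken against the dimmest probe well above background on each NPC array. The abutting probes on both sides, each 60 bases away, were above background on all 4 arrays and had changes of 0.59 and 0.62, that is, not lower in NPC.

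In the Smc3 region the probe at chr19:53699179-53699238 read 84.5 and 250.8 in ESC and was at the floor in NPC, at least 13.1-fold higher in ESC (adjusted p = 0.0110). The probe before it changed by 0.064 and the one after it by -0.89. In the Rad21 region the probe at chr15:51796280-51796339 read 98.6 and 150.8 in ESC and 2.79 and 2.42 in NPC, at least 10.96-fold higher in ESC (adjusted p = 0.0104). Its neighbours had changes of -0.78 and -2.85. The Rad21 probe with the largest fitted fall, chr15:51799397-51799456, read 605.4 and 961.4 in ESC; of the NPC arrays, 1 was at the floor and the other at 25.6, above background.

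The largest called rise was at chr15:89191895-89191954 in the Ncaph2 region, at 8.63 and 11.4 in ESC, not above background, and 36.7 and 37.2 in NPC. It was at least 2.26-fold higher in NPC (limma adjusted p = 0.0349), and the probe after it had a change of 1.91. Changes of adjacent probes were only loosely alike, with Spearman coefficients of 0.25, 0.23 and 0.18 over 446, 520 and 375 adjacent pairs for Rad21, Smc3 and Ncaph2, while their levels gave 0.61, 0.35 and 0.46. Adjacent probes share the same RNA and are not independent.

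The probe pattern of each locus was correlated between the cell types, with no other block set beside it. Across the probes of Rad21, Spearman coefficients were 0.953 for the ESC pair, 0.808 for the NPC pair and 0.814 to 0.891 between groups. For Smc3 they were 0.893, 0.826 and 0.769 to 0.882, and for Ncaph2 0.921, 0.860 and 0.811 to 0.924. In each locus, arrays of different groups resembled each other about as much as the NPC pair did. For Rad21 and Smc3 they resembled each other less than the ESC pair did.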

How the data were processed

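Nuclear RNA of 2 ESC and 2 NPC samples was measured on 4 arrays of 1 slide, in 1 scan. Intensity was read from the deposited scanner output, which is background-subtracted, with low values set to a floor, by Agilent Feature Extraction 11.5.1.1, per the file headers. The same program marked spots well above background and outliers (unit other, per the file headers). A deposited table holds the authors' log2 values (the scale was judged from its range). The submitters' processing notes name limma without a role; how the table was normalized or centred is not given in the sources used here. Its column medians run from 4.95 to 4.99. Ranks in its ESC 1 column did not follow that array's own scan (Spearman 0.873, against 0.900 with the scan of another array), so it served only as an alternative. The labels name no DNase step.

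Levels are log2 intensity, less the 75th percentile that each array reached over 15356 probes (those well above background on all 4). Outlier spots were left out on the array concerned, and 3188 control spots throughout. Probes were averaged per region, per block of the array (39 in all, parted by gaps above 50 kb) and per window of 5 kb with at least 5 probes. Groups came from the sample titles. Each table was fitted whole (limma 3.58.1, R 4.3.3; lmFit, then eBayes; group the only term), with Benjamini-Hochberg adjustment; a call means an adjusted p under 0.05. A bound for a probe dim in a group sets the bright group's mean log2 level against, per array, the higher of that probe's level and the lowest level among probes well above background. The fit was tried on simulated independent rows with planted changes, for probes and windows and not for blocks or pairs of blocks. The number of arrays limits the precision.

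Windows named are, per region, the 3 highest in level, the 2 largest rises and falls, and the first and last with 50% of probes above background; probes named are among the 2 largest called each way. Other windows are named after their values were seen. The members, lists and motifs were chosen with earlier results of these data known. The array files hold gMedianSignal, used for normexp (offset 50) in place of a mean signal. Figures used matplotlib 3.10.9 (Python 3.11.15).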

Additional observations from a re-analysis of the deposited data

How the results depend on the processing

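The common floor, the restriction to probes above background on all arrays and the scaling by array medians of SRN spots were added after seeing the data. For what follows, the cause was not tested, except that some settings test fewer probes or other windows. Ncaph2 was at -0.39 with the authors' values, -0.51 with the all-probe percentile, -0.17 with normexp, 0.16 with the change per SRN spot, 0.082 without chromosome 12 and 0.30 with SRN medians; Smc3 at -0.28, -0.36 and -0.14 under the last 3. Ncaph2 minus Rad21 was 0.32 with the authors' values, 0.40 with probes above background on all arrays and 0.55 with the median over probes. Windows lower in the 3 regions numbered 3 with the change per SRN spot, 25 with the all-probe percentile and 22 with the median over windows. They numbered 2 without chromosome 12, 21 with the authors' values, 18 with normexp, 5 with bright probes, 3 with SRN medians and 19 at 2 kb. In the same order, windows lower over the whole array numbered 68, 622, 540, 65, 442, 353, 159 and 67, of 918 to 964. No such count is given for 2 kb or for the counts of probes that follow. Probes lower numbered 39 with the all-probe percentile, 47 with normexp, 12 with bright probes and 0 with probes above background on all arrays; probes higher 0, 2, 2 and 2 there, 4 with the change per SRN spot, 4 without chromosome 12, 0 with the authors' values, 4 with a common floor, 8 with SRN medians and 2 with the trend prior. Rad21 kept direction and call in 17 of 19 alternatives, losing the call without either ESC array.

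Leaving out 1 array (the lone one left is taken to vary as the other pair does) gave -0.93 to -0.60 for Rad21, -0.76 to -0.38 for Smc3 and -0.24 to -0.026 for Ncaph2, 0.48 to 0.78 for Ncaph2 minus Rad21, 0.26 to 0.62 for Ncaph2 minus Smc3 and -0.22 to -0.16 for Rad21 minus Smc3. Windows lower ranged from 0 to 20, probes lower from 22 to 169 and probes higher from 0 to 12. The share above background moved by -7.47 to -5.05 points for Rad21, -5.44 to -2.58 for Smc3 and -1.57 to 3.39 for Ncaph2.

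With the replicate block, 15 probes were lower and 0 higher, and Rad21 was at -0.76 (limma adjusted p = 0.000117); it changed no call of a region or pair. Deviations of same-numbered arrays correlated at -0.028 over probes. This cannot show whether same-numbered samples were prepared together, and the labels do not say.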
